A study of Mus musculus with 2 samples.

Results

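The genes described are 10 genes that mark endothelial cells, the cells that line blood vessels, or that build the contacts between them: Pecam1, Cdh5, Emcn, Eng, Esam, Egfl7, Robo4, Cd34, Vwf and Jam2. They were chosen by name, as the rows with these symbols in the deposited table, and all 10 were found among its 14678 genes. The choice was made with earlier results of these data known, and Jam2 is among the top down-regulated genes that the study lists. Shares of the 10 genes called lower or higher are therefore descriptions and no test. The table compares mouse uterus at day 2.5 of gestation (G2.5), before implantation, with and without normal expression of vascular endothelial growth factor (VEGF). Both groups were double transgenic females, VEGF tetO/tetO and beta-actin-tetR-Krab (βAK tg/wt). In these mice 4 copies of the tet operator stand in the Vegfa promoter, and the tetR-Krab repressor, driven by the β-actin promoter in cells throughout the body, binds them when doxycycline is absent. The control group, Dox+, was fed doxycycline at 200 mg/kg of chow, so that VEGF stayed on, and it carried the same alleles as the repressed group. In the Dox- group doxycycline was removed at 3 to 4 weeks of age, and the littermates were mated with VEGF tetO/tetO males and analysed at 9 to 10 weeks. Each group was 1 library made from 6 µg of total RNA pooled from 3 uteri, so no difference given here has a replicate check and no test between the groups was possible.

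Endothelial cells hold together through adherens junctions, in which the cadherin encoded by Cdh5 binds its like on the neighbouring cell, and through tight junctions, to which members of the junctional adhesion molecule family and related immunoglobulin-like proteins such as Esam belong. Other surface and secreted proteins, among them Pecam1, Emcn and Vwf, are used in most tissues to recognise vessels. VEGF is known to act on both the number of vessels and the tightness of these junctions. The uterus holds vessels beside muscle, stroma and epithelium. In RNA of a whole uterus, fewer endothelial cells, less RNA of a gene per endothelial cell and less RNA from other cells cannot be told apart.

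Promoter sequence was looked up for all 10 genes in the RefSeq table for build GRCm38.p6, and 5 were found there (Cd34, Egfl7, Emcn, Eng and Robo4). The sequences of 4 of them are shown because they pair genes that were lower in Dox- (Egfl7, Emcn) with genes that were not (Cd34, Eng). Each runs 5′ to 3′ on the plus strand, which is the strand of the gene, from 250 bases before the start of the transcript to 50 after it. Capitals mark GGAA and its reverse complement TTCC, the core letters bound by ETS transcription factors, many of which are active in endothelial cells. For Egfl7, which has 3 starts in the table, the most upstream is given (chr2:26580833-26581132). Emcn lies at chr3:137340828-137341127, Cd34 at chr1:194938571-194938870 and Eng at chr2:32646345-32646644.
Egfl7: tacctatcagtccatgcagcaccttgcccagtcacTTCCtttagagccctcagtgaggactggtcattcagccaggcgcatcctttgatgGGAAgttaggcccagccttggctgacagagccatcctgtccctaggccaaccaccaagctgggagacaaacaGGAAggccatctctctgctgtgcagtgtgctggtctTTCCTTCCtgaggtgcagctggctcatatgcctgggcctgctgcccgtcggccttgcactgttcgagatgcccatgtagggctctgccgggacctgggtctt
Emcn: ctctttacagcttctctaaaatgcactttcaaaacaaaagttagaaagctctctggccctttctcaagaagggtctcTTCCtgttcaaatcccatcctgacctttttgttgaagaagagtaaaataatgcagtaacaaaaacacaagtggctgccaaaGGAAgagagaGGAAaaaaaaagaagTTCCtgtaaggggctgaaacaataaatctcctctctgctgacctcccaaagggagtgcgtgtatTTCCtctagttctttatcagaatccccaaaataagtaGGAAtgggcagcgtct
Cd34: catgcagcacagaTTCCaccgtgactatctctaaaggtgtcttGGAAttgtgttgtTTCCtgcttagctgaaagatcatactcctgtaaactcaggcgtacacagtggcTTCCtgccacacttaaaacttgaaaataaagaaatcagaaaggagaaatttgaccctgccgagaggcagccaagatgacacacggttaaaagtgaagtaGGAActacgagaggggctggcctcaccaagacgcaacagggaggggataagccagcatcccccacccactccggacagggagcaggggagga
Eng: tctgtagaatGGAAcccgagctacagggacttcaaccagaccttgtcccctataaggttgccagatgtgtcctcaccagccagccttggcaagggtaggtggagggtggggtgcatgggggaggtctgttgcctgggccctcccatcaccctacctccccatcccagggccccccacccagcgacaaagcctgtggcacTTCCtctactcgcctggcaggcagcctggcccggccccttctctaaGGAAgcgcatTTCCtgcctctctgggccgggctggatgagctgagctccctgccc

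These windows hold 5 such sites in Egfl7, 6 in Emcn, 5 in Cd34 and 4 in Eng. The letters were common in promoters at large: 96.0% of 32851 promoter windows of the same length held at least 1 site, with a median of 3. As many sites or more were found in 28.6% of windows for the count of Egfl7 and Cd34, in 15.7% for that of Emcn and in 46.3% for that of Eng. The other 2 starts of Egfl7 had windows with 4 sites and 1. A match of letters is not a bound site, and no link between sites and levels was tested.

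Levels are given as copies, the number of sequence tags assigned to a gene, and as RPM, the copies per 1000000 clean tags, of which Dox+ had 5985925 and Dox- had 5844314. Tags assigned to genes made up 74.1% and 72.2% of these. Ratios are of RPM, Dox- over Dox+, with exact Clopper-Pearson 95% intervals that cover counting error only and leave out the variation between mice. A gene was called lower or higher when its ratio was at least 1.5-fold either way and its copies in both libraries together reached 200. For the targeted gene, Vegfa, 247 copies were counted in Dox+ and 125 in Dox-, or 41.3 and 21.4 RPM, a ratio of 0.518 (0.415 to 0.645), which follows the labels of the libraries.

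Among the 10 endothelial genes the change was uneven. Jam2 was 30.7-fold lower in Dox-, Cdh5, Esam, Egfl7 and Emcn stood at 0.419 to 0.607 of their Dox+ level, and Pecam1, Vwf and Cd34 kept a ratio within 1.5-fold of 1 over their whole intervals. Of the 6 genes with at least 200 copies, 3 were called lower (Jam2, Cdh5, Egfl7) and 0 higher. Over all 6547 genes with as many copies, 14.7% were called lower and 15.2% higher. These calls make no allowance for variation between mice. When a coefficient of variation of 0.2 was assumed in the exact test of edgeR, with an FDR below 0.05 besides the fold, Jam2 was the 1 gene of the 10 still called, and Cdh5 and Egfl7 were not. Of all 6547 genes, 2.66% were then called lower and 2.25% higher. The other 4 genes, Emcn, Eng, Esam and Robo4, had 131 to 196 copies and fall under the threshold of 200, Eng being just under it. Emcn and Esam were more than 1.5-fold lower as well, which makes 5 of 10 genes lower and 0 higher when the threshold is 100 copies, beside 15.6% lower and 16.6% higher of 8856 genes. By the interval alone, 5 of 10 were below 1, against 29.0% of those 8856 genes, and 1 of 10 (Cd34) was above 1, against 31.9%. On the log2 scale the 10 ratios had a median of -0.53, and those of all genes with at least 200 copies a median of 0.03.

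**Figure D1:**
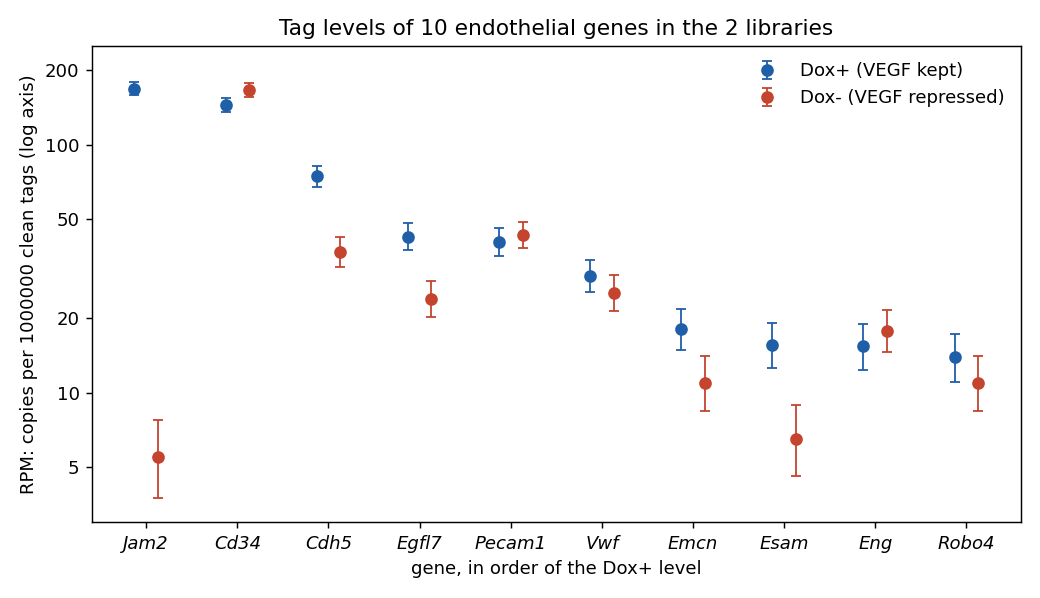
Level of the 10 genes in RPM (log axis) in the Dox+ and Dox- libraries, 1 library each, ordered by the Dox+ level, with bars for the exact Poisson 95% interval of the copies. Jam2 drops from 168 to 5.48, while the Dox+ and Dox- points of Pecam1, at 40.6 and 43.3, lie within each other's intervals.

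Jam2, Esam and Cdh5, which encode junction proteins, are described first. Within counting error Esam and Cdh5 could not be told apart from Egfl7 or Emcn, and Pecam1, also found at cell borders, was not lower. Jam2 encodes junctional adhesion molecule 2 (JAM-B), which sits in the contacts of endothelial cells and serves as a partner for JAM-C on neighbouring cells and leukocytes. It had 1007 copies in Dox+ and 32 in Dox-, or 168 and 5.48 RPM. Its level was 30.7-fold lower in Dox- (21.6 to 45.2), the 5th lowest ratio of the 6547 genes compared. Among the genes with a copy in the library, it stood level with or above 95% by copies in Dox+ and 29.3% in Dox-. Jam2 spans chromosome 16 from 84774368 to 84826173 on the plus strand of NCBIM37 (mm9), and a small 5S_rRNA gene of 98 bases lies inside it on the same strand. Which cells of the uterus the Jam2 copies came from was not tested.

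Cdh5 encodes VE-cadherin, the adhesion molecule of endothelial adherens junctions. It had 446 copies in Dox+ and 216 in Dox-, or 74.5 and 37.0 RPM, a level 2.02-fold lower in Dox- (1.71 to 2.38). Its ratio was the 360th lowest of the 6547. The gene lies on chromosome 8 from 106625525 to 106668402, plus strand, and no other annotated gene overlaps it. Esam encodes an immunoglobulin-like adhesion molecule of endothelial tight junctions and platelets. Its 93 copies in Dox+ and 38 in Dox- gave 15.5 and 6.50 RPM, 2.39-fold lower in Dox- (1.62 to 3.58), with only 131 copies in all. It lies on chromosome 9 from 37335663 to 37345904, plus strand, 114 kb beyond the end of Robo4.

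Jam2, Esam and Cdh5 together held 1546 copies in Dox+ and 286 in Dox-, a ratio of 0.189 (0.166 to 0.215). Without Jam2, Cdh5 and Esam together still gave 539 and 254 copies, a ratio of 0.483 (0.414 to 0.561). Cdh5 and Esam were lower by about the same factor: Esam had 0.209 copies for each copy of Cdh5 in Dox+ and 0.176 in Dox-, and the change of this ratio, 0.844, has an interval from 0.559 to 1.27. The difference was larger for Jam2, since its copies for each copy of Esam went from 10.8 to 0.842, a factor of 0.0778 (0.0464 to 0.130). Such ratios within a library do not depend on how the libraries are scaled.

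Jam3 and F11r, the nearest relatives of Jam2, were lower by a smaller factor than Jam2. Jam3, which encodes JAM-C, had 245 copies in Dox+ and 103 in Dox-, a ratio of 0.431 (0.339 to 0.544). F11r, which encodes JAM-A and is also made by epithelium and platelets, had 410 and 335 copies, a ratio of 0.837 (0.722 to 0.969), within 1.5-fold. Jam2 gave 60.6% of the copies of these 3 genes in Dox+ and 6.81% in Dox-, so that F11r rather than Jam2 was the most counted of the family in the Dox- library.

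The surface glycoproteins showed both kinds of behaviour. Pecam1 encodes CD31, a homophilic adhesion molecule at the borders of endothelial cells that platelets and leukocytes also carry. It had 243 copies in Dox+ and 253 in Dox-, or 40.6 and 43.3 RPM, a ratio of 1.07 (0.891 to 1.28), and lies on chromosome 11 from 106515531 to 106611942, minus strand. Cd34 encodes a sialomucin of endothelial cells, blood progenitors and some stromal cells. It had 864 copies in Dox+ and 970 in Dox-, or 144 and 166 RPM, and its ratio of 1.15 (1.05 to 1.26) was the only one of the 10 whose interval lay above 1. Cd34 lies on chromosome 1 from 196765015 to 196787486, plus strand, with the noncoding gene Gm16897 overlapping it on the opposite strand. The study told sense from antisense tags, but which of them the deposited copies hold is not stated.

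Emcn encodes endomucin, a sialomucin found mostly on capillary and venous endothelium. It had 108 copies in Dox+ and 64 in Dox-, or 18.0 and 10.95 RPM, 1.65-fold lower in Dox- (1.20 to 2.28). It lies on chromosome 3 from 137004031 to 137095149, plus strand. Of the 3 surface glycoproteins Emcn alone had an interval below 1, and it is also the one with the fewest copies.

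The receptors Eng and Robo4 were counted at low levels, and their intervals held 1. Eng encodes endoglin, a coreceptor for BMP and TGF-beta ligands. It had 92 copies in Dox+ and 104 in Dox-, or 15.4 and 17.8 RPM, a ratio of 1.16 (0.866 to 1.55). Robo4 encodes an endothelial receptor of the roundabout family that is known to steady vessels against VEGF. It had 83 and 64 copies, or 13.9 and 10.95 RPM, a ratio of 0.790 (0.561 to 1.11). Both intervals reach past 1.5-fold, so that at this depth a difference of that size was neither shown nor left out. Eng lies on chromosome 2 from 32502115 to 32538189 and Robo4 on chromosome 9 from 37209482 to 37221608, both on the plus strand. Eng shares 211 bases with Ak1 on its own strand and 61 with Fpgs on the other.

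The secreted proteins were split. Egfl7 encodes an endothelial matrix protein that guides the forming vessel tube, and the microRNA gene Mir126 lies within it on the same strand. It had 255 copies in Dox+ and 140 in Dox-, or 42.6 and 24.0 RPM, 1.78-fold lower in Dox- (1.44 to 2.20). Egfl7 lies on chromosome 2 from 26435534 to 26448640, plus strand, and shares 6482 bases with the gene model Gm20532 on the same strand, between which the tags may have been split. Vwf encodes von Willebrand factor, the clotting glycoprotein that endothelial cells and megakaryocytes store. It had 177 copies in Dox+ and 148 in Dox-, or 29.6 and 25.3 RPM, a ratio of 0.856 (0.684 to 1.07), and lies on chromosome 6 from 125496792 to 125636697, plus strand. The interval of Vwf, like those of Pecam1 and Cd34, left no room for a difference of 1.5-fold from counting error.

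**Figure D2:**
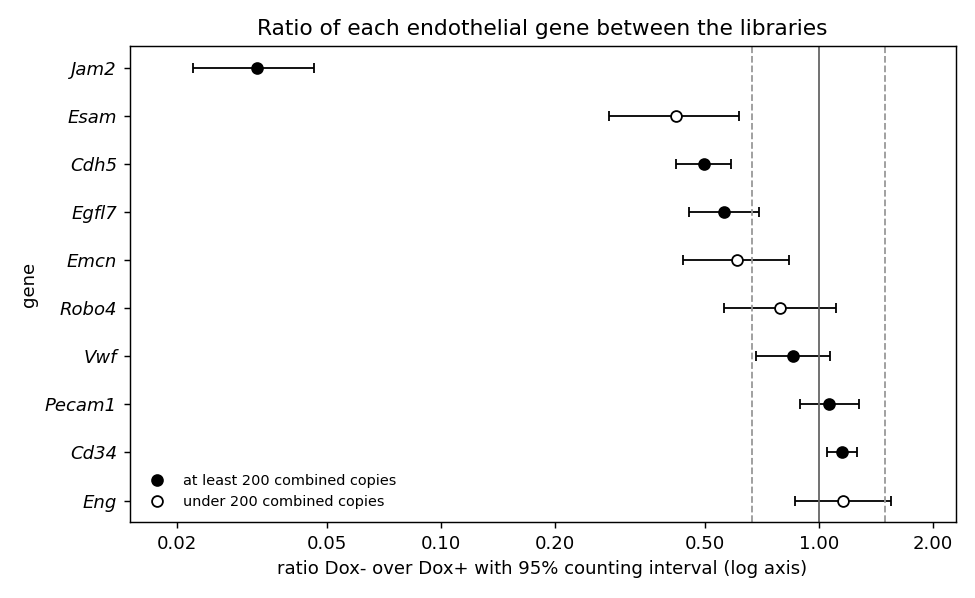
Ratio of RPM, Dox- over Dox+ (log axis), of each of the 10 genes with its exact 95% counting interval, filled where at least 200 copies were counted, with lines at 1 and at 1.5-fold either way. Jam2 stands alone at 0.0325, the next 4 genes lie between 0.419 and 0.607, and the other 5 between 0.790 and 1.16.

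Compared with each other within a library, the 10 genes form 45 pairs, and in 28 of them the ratio of copies differed between Dox+ and Dox- with a 95% interval (normal approximation on the log scale) that left out 1. Of these 28 pairs 9 were those with Jam2, and 19 were among the 36 pairs without it. No share over all pairs of genes was computed. Cdh5 had 1.84 copies for each copy of Pecam1 in Dox+ and 0.854 in Dox-, a factor of 0.465 (0.366 to 0.591). Egfl7 had 1.05 for each copy of Pecam1 in Dox+ and 0.553 in Dox-, a factor of 0.527 (0.402 to 0.692). For Pecam1 against Cd34 the factor was 0.927 (0.760 to 1.13), and for Cd34 against Eng it was 0.993 (0.739 to 1.33). Cdh5 and Egfl7 were thus lower relative to Pecam1 within the same RNA. In the order of their ratios, neighbouring genes other than Jam2 and Esam could not be told apart within counting error.

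For levels between genes, RPM was also divided by the length of the longest annotated transcript in kilobases. In the Dox+ library Cd34 stood highest on this scale with 55.1, followed by Jam2 with 38.5, Egfl7 with 22.8, Cdh5 with 18.7 and Pecam1 with 11.8. Esam (8.33), Emcn (6.97), Eng (4.30), Robo4 (3.58) and Vwf (3.35) were lower, and the counting intervals of Egfl7 and Cdh5, of Esam and Emcn, and of Eng, Robo4 and Vwf as neighbours overlapped. In the Dox- library Cd34 again led with 63.3, Egfl7 (12.8) and Pecam1 (12.6) overlapped, Cdh5 followed with 9.27, and the levels of Eng (4.98), Emcn (4.23), Esam (3.49), Vwf (2.87) and Robo4 (2.82) overlapped from neighbour to neighbour. Jam2 moved from the 2nd place to the last on this scale, at 1.25, and from the 1st place to the last by RPM alone. Over all genes copies did not rise with length, the median in Dox+ being 92 copies in the fifth of genes with the shortest transcripts and 82 in that with the longest, so the division may overcorrect, as for Vwf with its 8834 bases. By RPM alone Cd34 stood 2nd in Dox+ and 1st in Dox-. Vwf stood 6th and 4th by RPM, against 10th and 8th after the division.

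**Figure D3:**
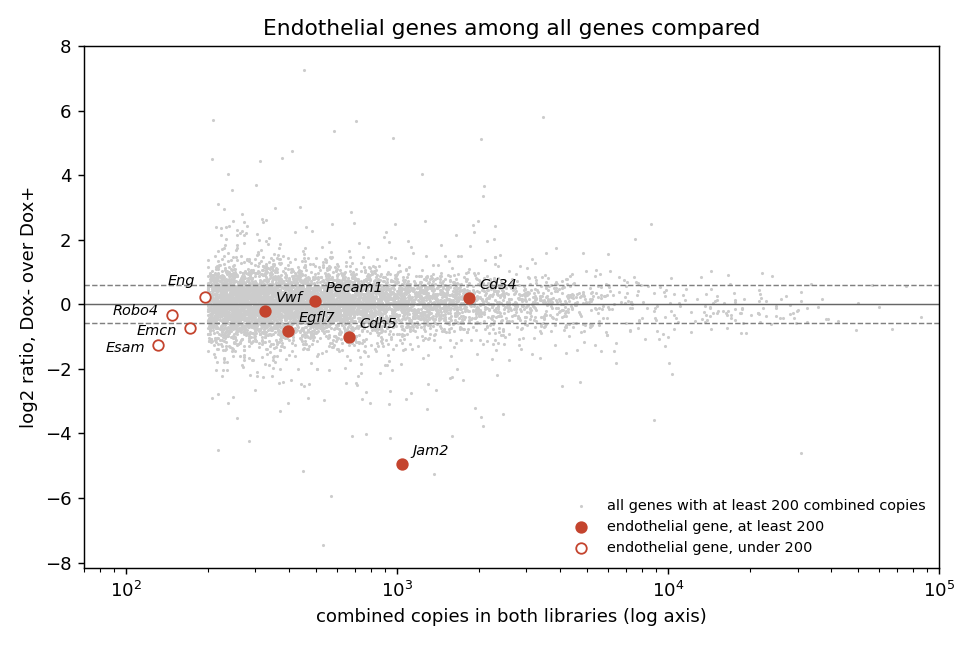
Log2 ratio, Dox- over Dox+, against the combined copies of both libraries (log axis) for all 6547 genes with at least 200 copies (grey) and the 10 endothelial genes (named, open where under 200), with lines at no change and at 1.5-fold either way. Jam2, at -4.94 with 1039 copies, lies far below the body of the cloud. The other 9 genes lie between -1.26 and 0.21, the open ones to the left of the cloud.

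Together the 10 genes had 3368 copies in Dox+ and 2029 in Dox-, or 563 and 347 RPM, a ratio of 0.617 (0.584 to 0.652). This sum turned on Jam2, which made up 29.9% of it in Dox+ and 1.58% in Dox-. Without Jam2 the sums were 2361 and 1997 copies, a ratio of 0.866 (0.816 to 0.920), within 1.5-fold. Cd34 pulled the other way, with 25.7% of the copies in Dox+ and 47.8% in Dox-, and without both genes the ratio of the other 8 was 0.703 (0.648 to 0.761).

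In a wider panel of endothelial genes more were lower than higher. Of 43 listed genes 41 were in the table and 14 had at least 200 copies. Of these 14, 3 (21.4%) were called lower and 0 higher, beside 14.7% and 15.2% of all genes. The median log2 ratio of the 14 was -0.41. At 100 copies 8 of 31 panel genes were past 1.5-fold lower and 1 higher, beside 15.6% and 16.6% of 8856 genes. By the interval alone 16 of the 31 were below 1 and 2 above, against 29.0% and 31.9%. Sox17, a transcription factor of arterial endothelium that uterine epithelium also makes, had 1991 copies in Dox+ and 585 in Dox-, a ratio of 0.301 (0.274 to 0.330). The others called lower were the receptor Tie1 with 191 and 100 copies and the tight junction claudin Cldn5 with 152 and 90, both named after their values were seen. Cav1, the caveolar coat protein, had 1882 and 1308 copies and Thbd, thrombomodulin, 433 and 317, ratios of 0.712 and 0.750 that stay within 1.5-fold. The panel summed to 1356 RPM in Dox+ and 930 in Dox-, a ratio of 0.686, and without Sox17 to 1023 and 830 RPM, a ratio of 0.811 (0.781 to 0.842).

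Genes of other junction proteins, at the cell surface or anchoring junctions inside the cell, were called in both directions. Most of them are shared by epithelium and stroma. Of 20 junction machinery genes with at least 200 copies, 2 (10%) were called lower and 4 (20%) higher. Of all genes 14.7% and 15.2% were so called. The median log2 ratio of the 20 was 0.12. Those lower were Jam3 and the scaffold Magi1, with 162 and 64 copies, a ratio of 0.405 (0.298 to 0.544). Of those higher, Tjp3, the tight junction scaffold ZO-3, had 56 and 249 copies, a ratio of 4.55 (3.40 to 6.20). The others called higher, named after their values were seen, were Cgnl1 (675 and 1130 copies), Mllt4 (133 and 231) and Cxadr (104 and 166). At 100 copies 6 of 23 of these junction genes had an interval below 1 and 10 above, against 29.0% and 31.9% of 8856 genes. Ctnnb1, which encodes β-catenin and binds the tail of VE-cadherin, had 2319 and 1734 copies, a ratio of 0.766, and Cdh11 and Vcl also stayed within 1.5-fold. The table's own annotation to the apical junction complex, which Cdh5, Esam and Jam2 carry and which was picked after values were seen, holds 67 other genes. Of the 36 with at least 200 copies, 10 (27.8%) were called lower and 11 (30.6%) higher, with a median of 0.08. These shares stand beside 14.7% and 15.2% of all genes.

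A further list held ligands, receptors and effectors tied to the 10 genes by function, and relatives of Cd34. Of its 12 genes counted at 200 copies or more, 5 (41.7%) were called lower and 1 (8.33%) higher, with a median log2 ratio of -0.37, beside 14.7% and 15.2% of all genes. Podxl and Podxl2, the sialomucins related to Cd34, had 338 and 134 copies and 236 and 50 copies, ratios of 0.406 (0.330 to 0.497) and 0.217 (0.157 to 0.295), so that both relatives were lower where Cd34 was not. Of the 3 most counted, Id2, a transcriptional regulator, was called lower with 1933 and 888 copies, a ratio of 0.471 (0.434 to 0.510), while Itgb1 with 1863 and 1992 copies and Tgfbr2 with 884 and 841 stayed within 1.5-fold. The list also holds relatives of Id2 and the Smad proteins that carry or inhibit signals of the receptors endoglin works with, and these are named after their values were seen. Id1 (563 and 294 copies) and Smad1 (207 and 106) were called lower, the inhibitor Smad7 (150 and 275) was called higher, Id3 (761 and 498) and Smad5 (236 and 206) were not called, and Smad6 (66 and 60) lay under 200 copies.

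**Figure D4:**
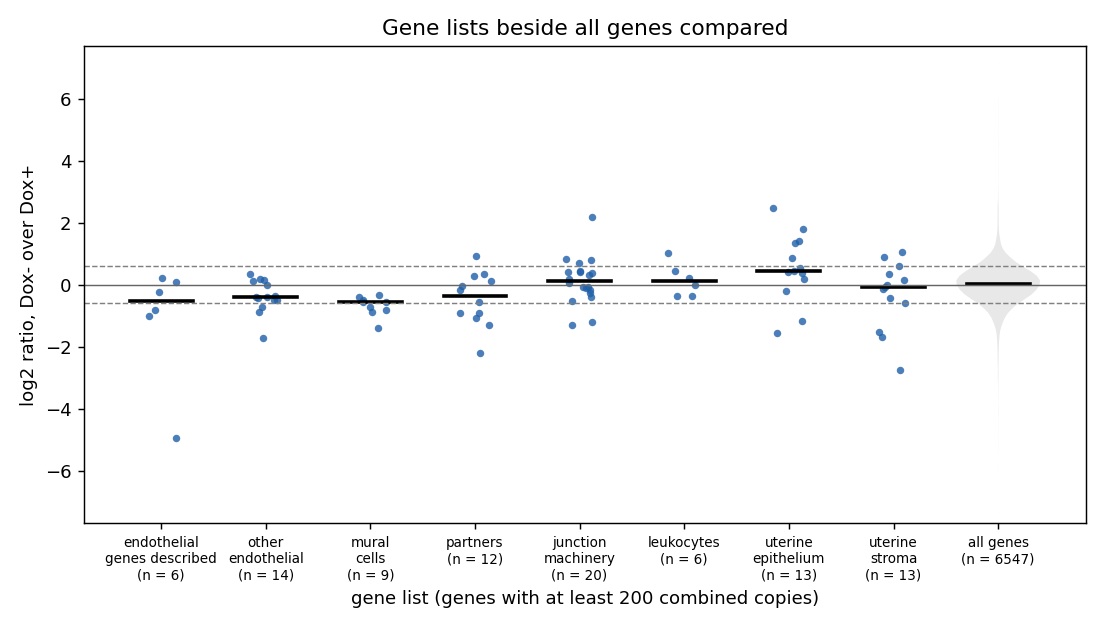
Log2 ratio, Dox- over Dox+, of the genes with at least 200 combined copies in each list (points, 6 for the endothelial genes described) and in all genes (shaded shape), with a bar at each median and lines at no change and at 1.5-fold either way. The medians are 0.03 for all genes, -0.41 for the endothelial panel, -0.57 for mural cells and 0.43 for uterine epithelium.

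Markers of mural cells and of lymphatic endothelium summed to less in Dox-, and their part in the results above was not tested. All 12 mural cell markers, of the pericytes and smooth muscle around vessels, of which several also mark the muscle of the uterine wall, were in the table with none at 0. Of 9 with at least 200 copies 4 (44.4%) were called lower and 0 higher, beside 14.7% and 15.2% of all genes, and the list summed to 5154 RPM in Dox+ and 3574 in Dox-. The pericyte proteoglycan Cspg4 had 240 and 89 copies, a ratio of 0.380 (0.294 to 0.486). Among the contractile genes Cnn1 had 4866 and 2851 copies and was called lower, while Tagln with 11417 and 8854 and Myh11 with 4609 and 3169 stayed within 1.5-fold. The 8 lymphatic endothelial markers found of 9 all lay under 200 copies and summed to 68.0 and 43.8 RPM. Pdpn had 114 and 55 copies, Mmrn1 94 and 44 and Lyve1 77 and 48, while Nrp2 had 50 and 67. Prox1, the defining transcription factor, had 4 copies in Dox+ and 0 in Dox-, with an interval of the ratio from 0 to 1.55 that shows no difference. Nrp2 and Prox1 are named after their values were seen.

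Blood cells also express Pecam1, Cd34, Vwf and Esam, and their markers moved in both directions. Their part in the results was not tested. Of 16 leukocyte markers 15 were in the table with none at 0. Of 6 with at least 200 copies 0 were called lower and 1 (16.7%) higher, beside 14.7% and 15.2% of all genes. The 15 markers summed to 238 and 311 RPM. Laptm5 had 224 copies in Dox+ and 446 in Dox-, whereas Cd53 with 236 and 266 and Tyrobp with 211 and 158 stayed within 1.5-fold. At 100 copies 5 of 9 leukocyte markers had an interval above 1 and 2 below, against 31.9% and 29.0% of 8856 genes. Ptprc (49 and 130 copies), Itgam (45 and 97) and Emr1 (70 and 102) were among those above 1. These are named after their values were seen. Of 11 markers of platelets and red cells 8 were in the table, with Ppbp and Hbb-b2 at 0 in Dox+, and they summed to 66.0 and 136 RPM. Itgb3, an integrin of platelets that other cells also carry, gave most of this with 255 and 538 copies. The alpha globin genes Hba-a1, with 26 and 114 copies, and Hba-a2, with 19 and 82, are near-identical copies whose counts are uncertain. The other markers had few copies and moved both ways. Itga2b and Pf4, of platelets, had 56 and 39 and 18 and 9 copies, and Alas2, of red cells, had 21 and 9. Ppbp had 0 and 2 copies and Hbb-b2 had 0 and 3. All these other markers are named after their values were seen. Without Itgb3 and both alpha globin genes the list summed to 15.9 RPM in Dox+ and 10.6 in Dox-, a ratio of 0.668 (0.477 to 0.930).

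Epithelial and stromal markers make up the rest of the tissue lists. All 15 epithelial markers were in the table and summed to 1481 and 2049 RPM. Of 13 with at least 200 copies 2 (15.4%) were called lower and 5 (38.5%) higher, beside 14.7% and 15.2% of all genes. The keratins Krt19, with 1554 and 2046 copies, and Krt8, with 1330 and 1481, stayed within 1.5-fold. Cldn7 (877 and 2263 copies), Muc1 (260 and 650), Krt7 (179 and 600) and Prom1 (152 and 831) were higher, and the claudins Cldn3 (1482 and 494) and Cldn4 (149 and 65) were lower. All 13 stromal markers passed 200 copies, with 4 (30.8%) called lower and 2 (15.4%) higher, beside the same shares of all genes. The 13 had a median log2 ratio of -0.08 and summed to 10275 and 12228.5 RPM. The collagen genes Col1a1 (23017 and 33696 copies) and Col3a1 (18514 and 17098) stayed within 1.5-fold and Col1a2 (4793 and 9627) was higher, while the transcription factors Hoxa10 (3120 and 1060), Hoxa11 (2573 and 785) and Hand2 (985 and 143) were lower. Without Col1a1 and Col1a2 the stromal list summed to 5629 and 4816 RPM, a ratio of 0.855 (0.842 to 0.869), so the higher stromal sum rested on these collagen genes.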

How the data were processed

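RNA of whole uterus was measured by digital gene expression tag profiling, with 1 library per condition. The authors removed adaptor, low quality and single tags, matched the rest to mouse transcripts and deposited copies, the raw counts of tags per gene, whose sum is below the unambiguous tags that the study lists. They also deposited copies per 1000000 clean tags without length correction, an RPM value that their header calls TPM. CASAVA and build mm9 are named in the submitters' processing notes, while the enzyme and aligner are not given in the sources used here. The labels speak of mRNA fragmentation, which does not match tag profiling and was not resolved, and while the study told sense from antisense tags, which of them the copies hold is not stated. The authors' own fold ratios, log2 ratios, P-values and FDR were not used.

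Library sizes were worked out from the counts and the RPM values. Levels carry exact Poisson and ratios exact Clopper-Pearson 95% intervals, for counting error only. Calls needed 1.5-fold and 200 combined copies. The 10 genes and the 9 other hand-written lists were chosen with earlier results of these data known. From each list the 3 genes with most copies and those at least 2-fold changed at 200 copies are named, and other names were chosen after their values were seen where the text says so. Positions and lengths are from the GENCODE annotation of NCBIM37. Alternatives were other scalings, filters and folds, an Audic-Claverie FDR, and edgeR's exact test with an assumed spread. Scripts were tested on simulated data. Python 3.11.15, scipy 1.17.1, R 4.3.3 and edgeR 4.0.16 were used.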

Additional observations from a re-analysis of the deposited data

How the results depend on the processing

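With 1 library per condition no library could be left out. No paired analysis was possible because each condition had a single library. Of the 10 genes, 3 of 6 were called lower, and this stayed at 3 with TMM, median-ratio or assigned-tag scaling and with a log2 threshold of 0.5. An Audic-Claverie FDR below 0.05 removed no gene (961 and 994 in all) and was therefore no check. The count was 5 of 10 without a filter on copies, where 2830 (20.6%) of 13727 genes were lower and 2869 (20.9%) higher. The main setting gave 961 and 994 of 6547 genes. At 100 copies the count was again 5 of 10, beside 1384 and 1472 of 8856 genes (15.6% and 16.6%). At a fold of 2 it was 2 of 6, beside 368 and 302 of 6547 genes (5.62% and 4.61%). In edgeR's exact test with an assumed coefficient of variation of 0.2 it was 1, Jam2 (174 and 147 genes, or 2.66% and 2.25%). At 0.4, chosen after seeing the data, it was also 1 (17 and 16 genes, or 0.260% and 0.244%). The log2 ratio of the summed copies was -0.70, between -0.73 and -0.66 under other scalings, and -0.21 without Jam2, a choice made after seeing the data. Further sums chosen after seeing the data turned the direction of 2 marker lists: the log2 ratio of the stromal sum went from 0.25 to -0.23 without Col1a1 and Col1a2, and that of platelets and red cells from 1.05 to -0.58 without Itgb3 and the alpha globin genes. That of the endothelial panel went from -0.54 to -0.30 without Sox17. Depth limits Esam, Robo4, Emcn and Eng most, with 131 to 196 copies.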

Other observations

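Some genes of the wider endothelial panel moved far at fewer than 200 copies, and they are named here after their values were seen. Sox7, a transcription factor of the same subfamily as Sox17, had 25 copies in Dox+ and 147 in Dox-, a ratio of 6.02 (3.92 to 9.61), opposite to Sox17, while the third of this subfamily, Sox18, had 121 and 128 copies. Gpihbp1, which holds lipoprotein lipase on capillaries, had 50 and 7 copies, a ratio of 0.143 (0.0548 to 0.318). Also past 2-fold lower were Arhgef15 (97 and 37 copies, ratio 0.391), Ets1 (75 and 33, ratio 0.451) and She (50 and 18, ratio 0.369). Dll4 was past 2-fold higher, with 25 and 50 copies, a ratio of 2.05 (1.24 to 3.46). Kdr, the main VEGF receptor of endothelial cells, had 10 and 17 copies, too few to tell a difference. The intervals are exact 95% intervals and cover counting error only.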
